A study of Mus musculus with 6 samples.

Results

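The core loop of the circadian clock was represented by 10 genes of the 43043 listed for D4M-3A, a cell line from a mouse melanoma. They were chosen by name as the 3 activators Arntl, Clock and Npas2 and the 7 repressors Per1, Per2, Per3, Cry1, Cry2, Nr1d1 and Nr1d2. All 10 were found, and 9 were tested, since Npas2 did not pass the filter on low counts. RNA was sequenced from 3 samples of control cells (Ctrl) and 3 of Nfkbiz knockout cells (Nfkbiz KO), named as independent replicates in the study's methods. Both groups were transduced with lentivirus, the controls with a CRISPR-Cas9 construct that was empty and the knockout cells with a construct directed at Nfkbiz, which encodes the transcriptional co-regulator IκBζ. The sources used here do not say whether the knockout cells were a clone or a pool, and they give neither a time of harvest nor a synchronisation of the cells.

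In the clock, a dimer of BMAL1 (from Arntl) with CLOCK or its paralog NPAS2 binds E-box elements and activates the period (Per), cryptochrome (Cry) and REV-ERB (Nr1d) genes. PER and CRY proteins act together to repress this dimer, whereas the REV-ERB nuclear receptors bind response elements in the Arntl gene and repress its transcription. D-box elements, bound by DBP and TEF as activators and by NFIL3 as a repressor, add a further input to several of these genes. The loop runs in most cell types, in which single cells can oscillate out of phase unless they are synchronised.

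RefSeq promoter windows of 300 bases (250 before to 50 after an annotated start, table of GRCm38.p6) were found for 9 of the 10 members, 13 windows in all, each of which matched GRCm39 exactly once. They were searched on both strands for the E-box CACGTG, the receptor element AGGTCA and the D-box TTATGTAA or TTACGTAA, which do not overlap in the windows shown. CACGTG was in 2 of the 13 windows, AGGTCA in 4 and a D-box in 1, where 7.15%, 16.3% and 1.06% of all 32851 windows in the table hold them. The 5 windows below were chosen because they belong to the activator that fell (Arntl), to 2 repressors that rose (Per3, Nr1d2) and to 2 repressors that did not pass the test (Per1, Cry1), and because each holds a match, in capitals. Positions are counted from the start, and all sequences run 5′ to 3′ on the strand of the gene.
Arntl, second window, chr7:112806468-112806767, plus strand, AGGTCA at 32: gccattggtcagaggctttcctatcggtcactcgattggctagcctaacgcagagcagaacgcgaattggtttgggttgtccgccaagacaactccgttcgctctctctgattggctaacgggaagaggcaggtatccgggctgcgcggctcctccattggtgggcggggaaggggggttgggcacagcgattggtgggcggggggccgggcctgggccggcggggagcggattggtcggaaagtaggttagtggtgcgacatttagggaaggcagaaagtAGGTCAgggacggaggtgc
Nr1d2, chr14:4230340-4230639, plus strand, AGGTCA at -77: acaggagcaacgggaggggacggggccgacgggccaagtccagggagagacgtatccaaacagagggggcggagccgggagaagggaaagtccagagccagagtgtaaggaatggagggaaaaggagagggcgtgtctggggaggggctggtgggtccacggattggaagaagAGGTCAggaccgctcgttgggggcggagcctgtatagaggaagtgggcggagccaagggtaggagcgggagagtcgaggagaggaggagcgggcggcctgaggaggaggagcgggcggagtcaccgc
Per3, chr4:151129073-151129372, minus strand, D-boxes at -205 and -158: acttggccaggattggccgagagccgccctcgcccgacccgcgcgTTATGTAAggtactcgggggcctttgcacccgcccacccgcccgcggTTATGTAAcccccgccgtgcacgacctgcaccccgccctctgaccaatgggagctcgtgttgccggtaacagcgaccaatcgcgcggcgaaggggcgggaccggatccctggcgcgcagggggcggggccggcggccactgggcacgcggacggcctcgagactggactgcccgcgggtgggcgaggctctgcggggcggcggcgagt
Per1, first window, chr11:68989525-68989824, plus strand, E-box at -166 and AGGTCA on the other strand at -137: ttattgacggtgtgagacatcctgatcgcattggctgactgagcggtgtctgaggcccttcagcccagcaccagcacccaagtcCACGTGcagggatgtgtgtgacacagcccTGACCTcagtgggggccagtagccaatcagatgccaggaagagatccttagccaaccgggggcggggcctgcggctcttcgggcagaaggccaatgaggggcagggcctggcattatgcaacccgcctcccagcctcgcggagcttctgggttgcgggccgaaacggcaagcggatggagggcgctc
Cry1, chr10:85020869-85021168, minus strand, E-box at -60: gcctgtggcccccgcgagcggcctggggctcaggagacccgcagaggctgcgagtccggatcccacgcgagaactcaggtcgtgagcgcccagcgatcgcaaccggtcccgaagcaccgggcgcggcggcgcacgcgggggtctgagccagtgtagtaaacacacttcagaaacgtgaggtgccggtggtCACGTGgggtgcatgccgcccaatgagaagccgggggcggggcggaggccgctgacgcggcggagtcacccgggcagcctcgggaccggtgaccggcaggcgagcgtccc

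The window of Nr1d1 held none of these letters, nor did those of Cry2 and Npas2. The third window of Clock, the activator that rose, held AGGTCA on the other strand at -119 and is not shown. Per2 was the member without a window. A match describes the letters of a window and is not a measured binding site.

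Between 32219900 and 44927203 reads were counted on genes per sample, so that a count of 0 allows up to 0.0668 to 0.0931 CPM (gene reads scaled to the library total), for counting error only. The targeted gene Nfkbiz had 69.2 ± 5.87 TPM (a level normalised for transcript length and depth) in Ctrl samples and 34.9 ± 0.245 TPM in Nfkbiz KO (mean ± SD, n = 3 per group). These values are of RNA, whereas the paper checked the knockout in D4M-3A cells by immunoblot of the IκBζ protein. Of 9 melanocyte markers, 8 were below 1 TPM in every sample, with Sox10, Tyr, Mlana, Kit and Ednrb at 0, so the defining markers of the labelled cell type were absent or low in both groups (summed level 1.11 to 1.74 TPM in Ctrl samples and 1.27 to 1.68 TPM in Nfkbiz KO). Markers of immune cells summed to at most 0.222 TPM and those of keratinocytes to at most 0.154 TPM in any sample. The 4 endothelial markers summed to 0.550 to 0.827 TPM in Ctrl samples and 1.32 to 1.85 TPM in Nfkbiz KO, of which Cdh5 made up most (0.548 ± 0.139 and 1.54 ± 0.313 TPM), whereas Pecam1, Kdr and Tek were below 1 TPM in every sample. The part of this difference in the clock values was not tested.

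The loop did not move as a block. Of its 9 tested members, 5 were higher in Nfkbiz KO (Clock, Per2, Per3, Nr1d1 and Nr1d2), Arntl was lower, and Per1, Cry1 and Cry2 did not pass an adjusted p of 0.05 (edgeR's quasi-likelihood test on gene reads, Benjamini-Hochberg adjustment over the 14419 genes tested, used for every adjusted p here). Thus 6 of 9 members passed, where 36.6% of all genes tested did, with 5 higher against 18.2% of all genes and 1 lower against 18.4%. The groups did not overlap in CPM for 7 of 9 members, a state found in 48.4% of all genes tested. A fold change above 2 together with a difference above 4 TPM, by which a gene was called, was reached by Nr1d1 and Nr1d2, where 1.79% of all genes were called. At the less strict fold change of at least 1.5 and adjusted p of 0.1 or less, 5 of 9 members passed (Clock, Per2, Per3, Nr1d1 and Nr1d2), against 12.6% of all genes. The median log2 fold change was 0.74 over the 9 members and 0.89 over the 7 repressors, beside -0.02 over all genes tested. Since the members were chosen with earlier results of these data known, these counts and medians describe the set and do not test it. The 6 samples are bulk cultures, so more cells that express a gene and more RNA per cell cannot be told apart.

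**Figure D1:**
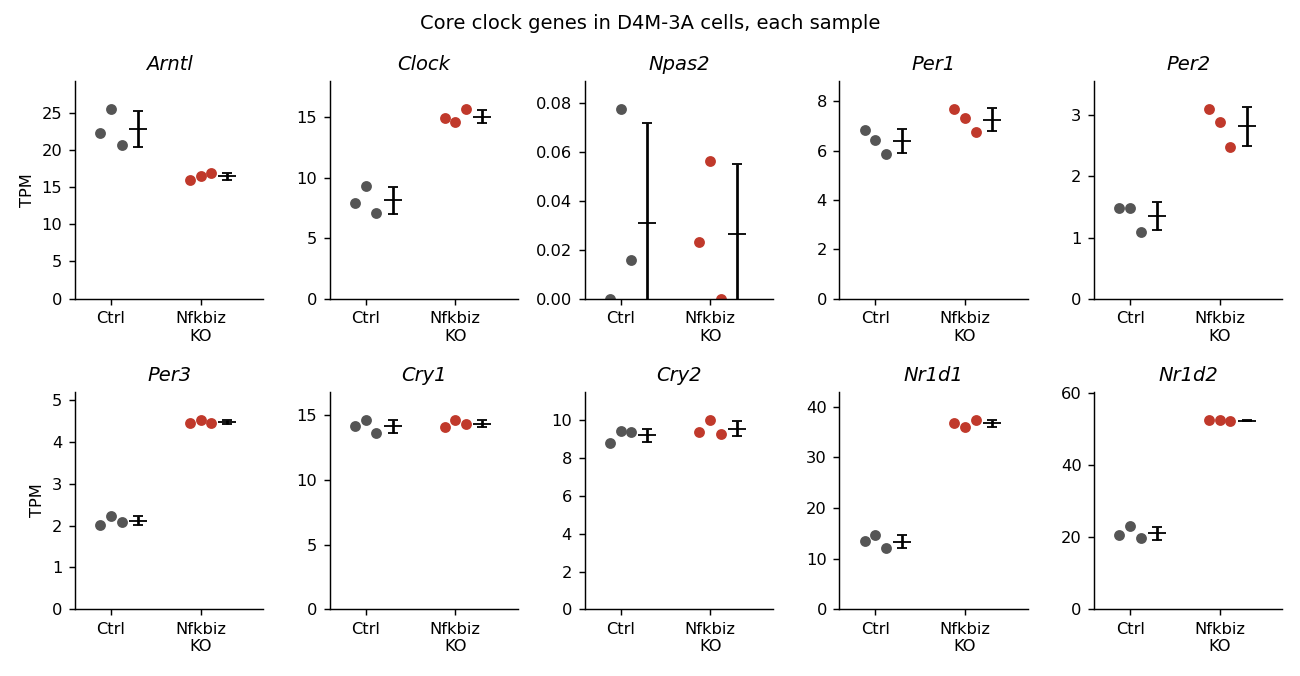
TPM of the 10 clock genes (vertical axes, each from 0) in the 3 Ctrl (grey) and 3 Nfkbiz KO (red) samples, with the mean and SD of each group as a black bar. Nr1d1, Nr1d2, Per2, Per3 and Clock are higher in every Nfkbiz KO sample than in every Ctrl sample, Arntl is lower in each, and Npas2 stays below 0.08 TPM.

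The activators went in opposite directions. Arntl (chromosome 7, 112806152 to 112914735, plus strand, GRCm39) is listed in the annotation under its newer name Bmal1. It encodes BMAL1, the partner of CLOCK in the activating dimer. Its level was 22.3, 25.4 and 20.7 TPM in Ctrl samples and 16.0, 16.5 and 16.9 TPM in Nfkbiz KO. All 3 knockout samples were below all controls. Its log2 fold change from gene reads was -0.55 (standard error 0.063, 95% interval -0.69 to -0.42, adjusted p = 2.4e-05), which is 1.47-fold lower. Clock (chromosome 5, 76342860 to 76452846, minus strand), the DNA-binding partner of BMAL1, had 7.91, 9.32 and 7.11 TPM in Ctrl samples and 14.9, 14.6 and 15.6 TPM in Nfkbiz KO. The groups did not overlap here either, and the log2 fold change reached 0.74 (standard error 0.076, 95% interval 0.57 to 0.90, adjusted p = 1.0e-05). The 3′ ends of Clock and of Tmem165, on the opposite strand, share 2047 exon bases in the annotation, and the counting did not use strand, so reads in these bases cannot be told apart. Tmem165 had a log2 fold change of -0.05 (adjusted p = 0.59), and the part of shared reads in the Clock values was not tested.

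With Arntl lower and Clock higher, the ratio of the 2 partners within a sample changed more than either gene. Clock TPM over Arntl TPM was 0.355 ± 0.011 in Ctrl samples and 0.913 ± 0.027 in Nfkbiz KO (mean ± SD, n = 3 per group). No sample of one group reached the other (p = 0.1 in a two-sided exact permutation test, which cannot go lower with 3 samples against 3). Npas2 (chromosome 1, 39232705 to 39402323, plus strand), which can take the place of CLOCK, was close to absent. It had 1, 5 and 1 reads in Ctrl samples and 1, 3 and 0 reads in Nfkbiz KO, so no difference was detectable at this depth.

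Among the period genes, which encode the PER subunits of the repressing complex, Per2 and Per3 rose and Per1 did not pass the test. Per2 (chromosome 1, 91343700 to 91387069, minus strand) had 1.48, 1.49 and 1.09 TPM in Ctrl samples and 3.10, 2.89 and 2.47 TPM in Nfkbiz KO. It rested on 108, 114 and 96 reads in Ctrl samples and 180, 217 and 203 in Nfkbiz KO, the fewest of the tested members, and so had the widest interval (log2 fold change 0.89, standard error 0.16, 95% interval 0.54 to 1.24, adjusted p = 0.00099). Its lowest knockout sample was still above its highest control. Per3 (chromosome 4, 151081373 to 151129140, minus strand) had 2.02, 2.23 and 2.09 TPM in Ctrl samples and 4.44, 4.51 and 4.45 TPM in Nfkbiz KO. Its log2 fold change was 1.09 (standard error 0.084, 95% interval 0.91 to 1.27, adjusted p = 7.8e-07). It passed a 2-fold change, but its difference of 2.35 TPM was below the 4 TPM needed for a call.

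Per3 was the member with the most reads that could be placed elsewhere in the genome. Its uniquely mapped share was 86.4% in Ctrl samples and 80.1% in Nfkbiz KO, and the other reads numbered 33, 39 and 38 in Ctrl samples and 91, 106 and 152 in Nfkbiz KO. With uniquely mapped reads only, its log2 fold change was 0.98. Per1 (chromosome 11, 68986035 to 69002300, plus strand), a period gene that also responds rapidly to extracellular signals, had 6.85, 6.45 and 5.87 TPM in Ctrl samples and 7.67, 7.32 and 6.75 TPM in Nfkbiz KO. Its lowest knockout sample lay below its highest control, and the log2 fold change was 0.08 (standard error 0.09, 95% interval -0.11 to 0.28, adjusted p = 0.52).

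The make-up of the period transcripts therefore differed between the groups. Per1 TPM over Per2 TPM was 4.80 ± 0.554 in Ctrl samples and 2.58 ± 0.132 in Nfkbiz KO (mean ± SD, n = 3 per group), without overlap. Per3 over Per1 was 0.332 ± 0.032 and 0.618 ± 0.040, again without overlap (exact permutation test, p = 0.1 for both). Per3 over Per2 was 1.60 ± 0.290 and 1.60 ± 0.186, with overlapping groups (exact permutation test, p = 1.0).

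The cryptochromes, partners of the PER proteins, showed no change that passed the test. Cry1 (chromosome 10, 84967560 to 85021252, minus strand) had 14.1, 14.6 and 13.6 TPM in Ctrl samples and 14.0, 14.6 and 14.3 TPM in Nfkbiz KO. In CPM its groups were narrowly apart, at 15.2, 14.8 and 15 against 13.7, 14.6 and 14.4, whereas in TPM they overlapped. Cry2 (chromosome 2, 92233894 to 92264474, minus strand) had 8.80, 9.41 and 9.34 TPM in Ctrl samples and 9.37, 9.99 and 9.27 TPM in Nfkbiz KO, and its groups overlapped. The log2 fold changes were -0.07 for Cry1 (95% interval -0.23 to 0.09, adjusted p = 0.48) and -0.08 for Cry2 (95% interval -0.22 to 0.07, adjusted p = 0.42), with the opposite sign on the TPM scale (0.02 and 0.06), so the data give no direction for either gene. Both intervals leave out the changes seen for Per2 and Per3. The ratio of Cry1 to Cry2 was 1.54 ± 0.074 in Ctrl samples and 1.5 ± 0.043 in Nfkbiz KO (mean ± SD, n = 3 per group; exact permutation test, p = 0.5).

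The REV-ERB genes had the largest increases of the loop. Nr1d1 (chromosome 11, 98658752 to 98666188, minus strand), which encodes REV-ERBα, had 13.4, 14.6 and 12.1 TPM in Ctrl samples and 36.7, 35.9 and 37.3 TPM in Nfkbiz KO. Every knockout sample was more than 20 TPM above every control, and the log2 fold change was 1.35 (standard error 0.067, 95% interval 1.20 to 1.49, adjusted p = 1.6e-08), a 2.55-fold increase. Nr1d2 (chromosome 14, 4230545 to 4266624, plus strand), which encodes REV-ERBβ, had 20.6, 23.1 and 19.6 TPM in Ctrl samples and 52.4, 52.3 and 52.0 TPM in Nfkbiz KO. Here the spread was far smaller within the knockout samples than between the groups, and the log2 fold change was 1.21 (standard error 0.058, 95% interval 1.09 to 1.34, adjusted p = 1.3e-08), a 2.32-fold increase. Of all genes tested, 3.47% had a larger change in either direction than Nr1d1 and 4.46% a larger one than Nr1d2. Nr1d1 over Nr1d2 was 0.633 ± 0.017 in Ctrl samples and 0.702 ± 0.015 in Nfkbiz KO (mean ± SD, n = 3 per group), a small shift without overlap (exact permutation test, p = 0.1).

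The 3′ end of Nr1d1 lies opposite that of Thra, which encodes the thyroid hormone receptor TRα, and 1694 of the 3242 exon bases of Nr1d1 are also exon bases of Thra. Since the counting did not use strand, reads in the shared bases cannot be told apart. Thra moved the other way, from 40.2 ± 1.42 TPM in Ctrl to 25.5 ± 2.36 TPM in Nfkbiz KO (mean ± SD, n = 3 per group), a log2 change of -0.71 (standard error 0.066, adjusted p = 4.1e-06). The part of shared reads in the values of either gene was not tested.

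**Figure D2:**
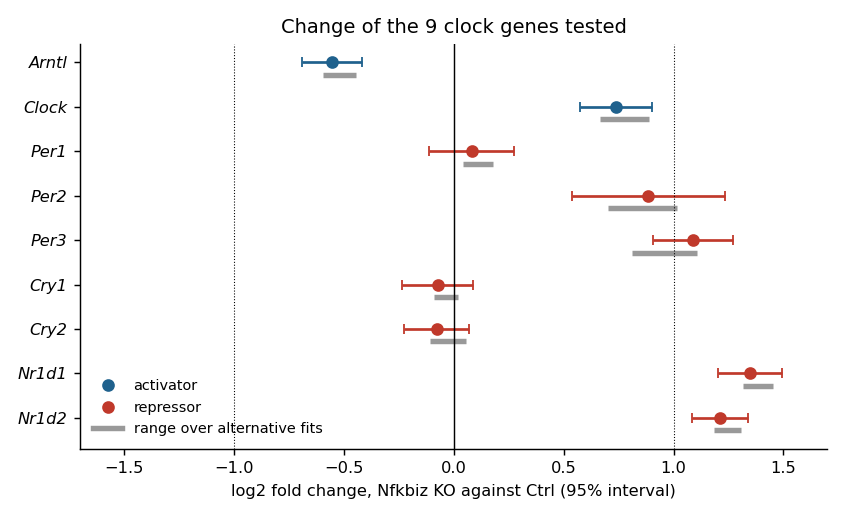
Log2 fold change of Nfkbiz KO against Ctrl from gene reads (horizontal axis) with its 95% interval for the 9 tested clock genes, activators in blue and repressors in red, the range over 15 alternative fits in grey and dotted lines at a 2-fold change. Nr1d1 and Nr1d2 lie above 1 with their whole intervals, Arntl lies below 0, and the intervals of Per1, Cry1 and Cry2 include 0.

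The order of the transcript levels changed accordingly. In Ctrl, Arntl (22.8 TPM on average) and Nr1d2 (21.1 TPM) were the most abundant and overlapped each other, followed by Cry1 (14.1 TPM) and Nr1d1 (13.4 TPM), which also overlapped, and by Cry2 (9.18 TPM) and Clock (8.11 TPM), again with overlap. Per1 (6.39 TPM), Per3 (2.11 TPM), Per2 (1.35 TPM) and Npas2 (0.031 TPM) came last, each apart from the one before. In Nfkbiz KO, Nr1d2 (52.2 TPM) and Nr1d1 (36.7 TPM) stood well above Arntl (16.5 TPM), Clock (15 TPM) and Cry1 (14.3 TPM), of which Clock and Cry1 overlapped. Cry2 (9.54 TPM) followed, and Per1 (7.24 TPM), Per3 (4.47 TPM), Per2 (2.82 TPM) and Npas2 (0.0265 TPM) kept the last 4 places in that order. These levels are scaled for length, unlike read counts, so the order between genes depends on the length used for each gene. In the annotation, exon bases number 11573 for Arntl, 17251 for Clock and 3242 for Nr1d1. Reads shared with Thra can also enter the level of Nr1d1.

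Repressors were then compared with activators gene by gene, as the ratio of their TPM within a sample, which does not depend on library size. Of 21 possible ratios, the 7 with Npas2 could not be formed because Npas2 was at 0 TPM in some samples. Relative to Arntl, all 7 repressors were higher in Nfkbiz KO without overlap. Nr1d1 over Arntl was 0.601, 0.574 and 0.587 in Ctrl samples and 2.30, 2.18 and 2.21 in Nfkbiz KO, a 3.80-fold increase. Nr1d2 over Arntl was 0.923, 0.911 and 0.95 in Ctrl samples and 3.28, 3.17 and 3.08 in Nfkbiz KO, a 3.42-fold increase. In both cases the TPM of the repressor was thus below that of the activator in every control and above it in every knockout sample. Which of the genes is higher within a sample depends on the lengths used for TPM, whereas the fold increase of a ratio does not. The log2 differences of the other ratios to Arntl were 1.55 for Per3, 1.54 for Per2, 0.65 for Per1, 0.52 for Cry2 and 0.49 for Cry1. Per1, Cry2 and Cry1 had themselves not passed the test, and the lower level of Arntl enters all 7 ratios. The log2 TPM difference of Arntl itself was -0.47, beside a median of 0.08 over all genes on log2(TPM + 0.1). A gene without a change of its own is therefore also higher relative to Arntl.

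Relative to Clock, the picture was mixed. Nr1d1 and Nr1d2 were higher (log2 differences 0.56 and 0.41), Cry1, Cry2 and Per1 were lower (-0.88, -0.84 and -0.72), and the ratios of Per2 and Per3 overlapped between the groups (0.17 and 0.18, exact permutation tests, p = 0.3 and 0.2). The log2 TPM difference of Clock itself was 0.90 and enters every one of these ratios. Cry1, Cry2 and Per1 had themselves not passed the test, so their lower ratios do not show a lower level of these genes. In all, 12 of the 14 ratios did not overlap, each with p = 0.1 in the two-sided exact permutation test (0.117 after Benjamini-Hochberg adjustment over 14), so that none can pass a threshold of 0.05 with 3 samples against 3. The ratios share their denominators and are not independent of each other. The share of all genes whose ratio to Arntl or Clock does not overlap was not computed, so these counts have no background beside them.

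**Figure D3:**
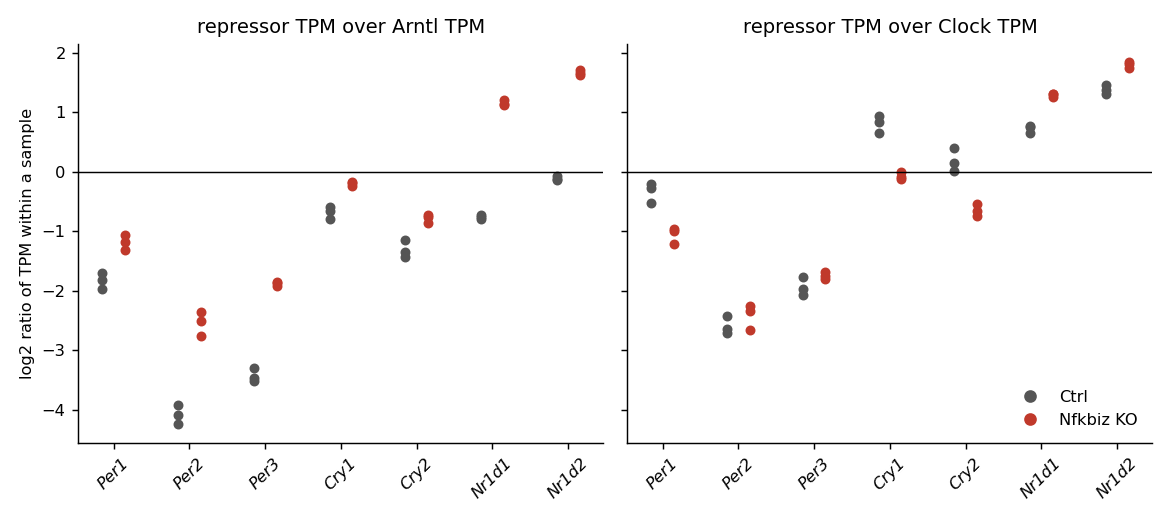
Log2 ratio of the TPM of each repressor to that of Arntl (left) and of Clock (right) within each sample, for 3 Ctrl (grey) and 3 Nfkbiz KO (red) samples. Relative to Arntl all 7 repressors are higher in Nfkbiz KO, whereas relative to Clock only Nr1d1 and Nr1d2 are higher without overlap. The changes of Arntl and Clock themselves enter these ratios.

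Gene reads also hold reads outside exons, whereas TPM and RPKM use exons. The log2 change of Per3 was 0.11 higher and that of Per2 0.08 lower in gene reads than in RPKM, relative to the median of 13711 genes, and that of Clock was 0.06 lower. On the log2 TPM scale the differences between the group means were 1.46 for Nr1d1, 1.31 for Nr1d2, 1.08 for Per3, 1.07 for Per2, 0.90 for Clock and -0.47 for Arntl, each in the same direction as in gene reads.

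A further 31 genes of the clock pathway were examined in 4 lists, of which 29 were tested. Adjusted p was 0.05 or less for 14 of them, 8 higher and 6 lower in the knockout samples, and none was called. Of all genes tested, 36.6% passed and 1.79% were called, the shares to set beside these counts and those of each list. The median log2 fold change of the 29 pathway genes was 0.12. Of these 14, 8 passed in every alternative fit (Dbp, Tef, Nfil3, Bhlhe40, Bhlhe41, Sirt1, Hdac3 and Nampt), and 6 did not pass in at least 1 (Fbxl21, Btrc, Gsk3b, Ncor1, Klf9 and Klf10). Genes named from these lists beyond the 2 largest changes of each were chosen after their values were seen. In the list of clock output and second-loop genes (10 genes, 8 tested), 3 were higher, 2 were lower and 3 did not pass. Dbp, a D-box activator and a direct output of the loop, had 5.83 ± 0.602 TPM in Ctrl samples and 12.2 ± 1.09 TPM in Nfkbiz KO (mean ± SD, n = 3 per group; log2 fold change 0.97, standard error 0.12, adjusted p = 5.9e-05), with 86.9% of its reads mapped uniquely. Tef, which encodes a related D-box activator, rose by 0.72 on the log2 scale. Nfil3, the D-box repressor, fell from 60.9 ± 2.55 to 38.7 ± 3.66 TPM (log2 fold change -0.76, standard error 0.071, adjusted p = 4.2e-06).

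The DEC repressors, which compete with the activating dimer for E-boxes, were split, with Bhlhe40 (DEC1) lower (58.9 ± 2.22 to 39.7 ± 1.0 TPM, log2 fold change -0.67) and Bhlhe41 (DEC2) higher (log2 fold change 0.39). Ciart, Rora and Rorb did not pass the test. Rora and Rorb encode nuclear receptors that activate Arntl through the elements that REV-ERB proteins bind, and both averaged below 1 TPM in either group.

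Among the corepressor and partner genes of the loop (7 genes), 2 were higher, 1 was lower and 4 did not pass. Sirt1, a deacetylase that acts on BMAL1 and PER2, rose by 0.55 on the log2 scale (10.1 ± 0.785 to 15.8 ± 1.39 TPM, mean ± SD, n = 3 per group). Ncor1, which encodes the corepressor that REV-ERB proteins recruit, rose by 0.23, and Hdac3, which encodes the deacetylase of that complex, fell from 84.9 ± 0.908 to 71.5 ± 1.09 TPM (log2 fold change -0.34). Of 9 genes for the kinases and ubiquitin ligases that set the lifetime of PER and CRY proteins, 6 did not pass. Fbxl21, a ligase subunit for CRY proteins, was lower (2.54 ± 0.673 to 1.62 ± 0.157 TPM, log2 fold change -0.80, adjusted p = 0.0036), as was Btrc, a ligase subunit for PER proteins (log2 fold change -0.22), and the kinase gene Gsk3b was higher (0.17).

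Of 5 genes with known E-box control outside the loop, 2 were higher, 1 was lower and 2 did not pass the test. Nampt, the rate-limiting enzyme of NAD salvage, was higher (log2 fold change 0.31) and so was Klf9 (0.17), whereas Klf10 was lower (-0.20), and Wee1 and Usp2 were those that did not pass. The 8 higher and 6 lower of all 29 tested can be read beside the 18.2% and 18.4% of all genes.

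**Figure D4:**
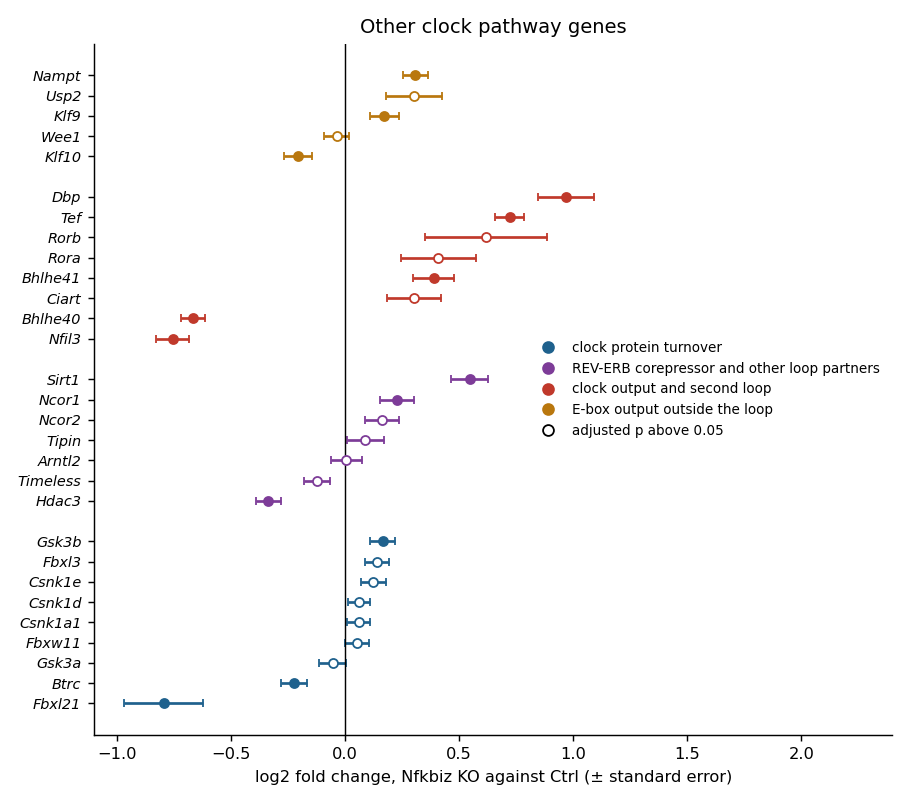
Log2 fold change of Nfkbiz KO against Ctrl (horizontal axis) with its standard error for the 29 other clock pathway genes tested, by list, with open symbols for an adjusted p above 0.05. Dbp and Tef lie highest among genes that passed the test, and Fbxl21, Nfil3 and Bhlhe40 lie lowest.

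For the called members, the genes with the most similar pattern over the 6 samples were sought as those with the smallest root-mean-square difference of centred log2 CPM. For Nr1d1 these were Nceh1 (0.026), Gm4841 (0.027) and Tbx20 (0.040), with log2 fold changes of 1.31, 1.39 and 1.42. For Nr1d2 they were Zfand2a (0.031), Slc14a1 (0.031) and Tafa1 (0.047), with log2 fold changes of 1.20, 1.23 and 1.20. The difference between Nr1d1 and Nr1d2 themselves was 0.075, larger than any of these. With 6 samples in 2 groups, this measure mainly matches the size of the difference between the groups.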

How the data were processed

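RNA of 3 Ctrl and 3 Nfkbiz KO samples of D4M-3A cells was analysed, grouped by the genotype label. The authors mapped paired reads with CLC Genomics Workbench, without strand and with read pairs counted as a unit. The paper names GRCm39, the submitters' processing notes name GRCm38, and the annotation version is not given in the sources used here. The deposited total and unique gene reads are raw counts. The TPM and RPKM values were computed by the authors from exons.

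Total gene reads were tested with edgeR 4.0.16 in R 4.3.3 (TMM, filterByExpr with minima of 10 reads and 15 in total, quasi-likelihood test). The standard error is the log2 fold change divided by the square root of F. For a call, group means had to differ by over 4 TPM and over 2-fold at an adjusted p of at most 0.05. These thresholds follow the study, which gives no unit for the difference. The p-values set the difference between the groups against the spread among the samples of each group. They do not cover variation between knockout lines or in clock phase at harvest, which cannot be told apart from the knockout. The procedure was checked on simulated counts with the same dispersion in both groups. That setting lacks the unequal spread of the groups given below, so the check does not cover it. No samples were duplicates by the chi-square per degree of freedom of their counts. It was 25.8 to 65.9 between Ctrl samples and 3.41 to 5.89 between Nfkbiz KO samples. The knockout samples were thus closer to each other than the controls were, and the reason was not tested.

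Results were set against DESeq2 1.42.0, RLE factors, the likelihood-ratio test of edgeR, other filters, limma 3.58.1 on log2(TPM + 1) and log2(TPM + 0.1), unique reads, a replicate block, other thresholds and each sample left out in turn. Genes named are the members, Nfkbiz, tested genes that overlap a member, the 2 largest changes with an adjusted p of 0.05 or less of each list, and the 3 nearest patterns of each called member, and others were chosen after their values were seen. The values of 1 listed gene are not reported here. The members and lists were chosen with earlier results of these data known. Coordinates are from GENCODE on GRCm39. Figures were drawn with matplotlib 3.10.9.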

Additional observations from a re-analysis of the deposited data

How the results depend on the processing

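In all 15 alternative fits, 6 members had an adjusted p of 0.05 or less and 2 were called, and Arntl, Clock, Per1, Per2, Per3, Nr1d1 and Nr1d2 kept their direction. The log2 fold changes of Cry1 and Cry2 turned positive with limma on log2(TPM + 1) (0.019 and 0.050) and on log2(TPM + 0.1) (0.021 and 0.055), with adjusted p from 0.55 to 0.80. Over all genes, the medians on these scales were 0.06 and 0.08. Without the 4 TPM cut-off, 854 genes and 3 members were called in place of 258 and 2 (Per3 was added), and at a fold change of at least 1.5 with an adjusted p of 0.1 or less, 1810 genes and 5 members. With each sample left out in turn, 3798 to 5533 genes passed the adjusted p and 248 to 271 were called, and 12 to 14 of the 14 ratios did not overlap. With a replicate block, 5087 genes passed the adjusted p, 257 were called, and no call of a member changed. Among the other pathway genes, Klf9 no longer passed (adjusted p = 0.070). The sample names do not say whether same-numbered samples belong together. Their deviations from the group means had correlations of 0.0367, -0.0233 and 0.0256, which cannot settle a pairing with so few samples. Depth limits Npas2 most, with 0 to 5 reads per sample, and then Per2, with 96 to 217. Of the other pathway genes, 6 missed an adjusted p of 0.05 in at least 1 alternative fit. Fbxl21, Btrc, Ncor1 and Klf10 did so with limma on both TPM scales (adjusted p from 0.074 to 0.36), and Klf9 with unique reads (0.051). Leaving out a sample took the adjusted p above 0.05 for Gsk3b (Ctrl 1, Nfkbiz KO 1, 2 or 3, adjusted p up to 0.13) and Klf9 (Ctrl 1 or 3, Nfkbiz KO 1, 2 or 3, up to 0.21). The same held for Ncor1 (Nfkbiz KO 1, 2 or 3, up to 0.10), Btrc (Nfkbiz KO 2 or 3, up to 0.060) and Klf10 (Nfkbiz KO 2 or 3, up to 0.11).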
